A study of Mus musculus with 23 samples.

Results

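A set of 778 regions of the mouse genome was open in duodenal villus and in adult colon but closed in duodenal crypt. The regions came from the peaks of 23 ATAC-seq libraries, which merged into 149024 regions. All regions, where the text compares with them, are the 85469 found in 2 or more of the 23 libraries. Outcome libraries count here, so a region can be among the 85469 through outcome peaks alone. A region was taken when at least 5 of the 6 Villi libraries (Adult and Geriatric), at least 2 of the 3 Adult Colon libraries and at most 1 of the 6 Crypt libraries had a peak there. By this rule "closed in crypt" means a called peak in at most 1 of the 6 Crypt libraries, and 425 of the 778 regions had 1. An outcome group is called open with a peak in at least 2 of its libraries and closed with a peak in none. The regions were thus chosen by the presence of peaks in those 15 libraries, which is described here and not tested. The 8 libraries of Juvenile Duodenum, Juvenile Colon and Geriatric Proximal Colon had no part in the choice and are the outcomes. For comparison, a mirror class was formed with villus and crypt exchanged, which gave 592 regions open in crypt and adult colon, with a peak in at most 1 Villi library. The 2 classes are called crypt-closed and villus-closed below.

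Intestinal epithelium renews itself from stem cells at the base of the crypts. In the duodenum the daughter cells mature as they leave the crypt and climb the villus, where absorptive enterocytes prevail. The colon has no villi, and its cells mature on the way up the crypt to the flat surface. ATAC-seq marks open DNA, such as promoters and enhancers in use, through adapters that a transposase inserts. A region open in villus and colon and closed in duodenal crypt is shared by the villus fraction and by the adult colon, where dividing and mature cells were collected as a whole. Which cells carried the peaks was not tested.

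The mice carried no stated genetic change or treatment. Juvenile Duodenum was whole epithelium at 12 days, Juvenile Colon was taken at 15 days, Adult Villi, Adult Crypt and Adult Colon at 90 days, and Geriatric Villi, Geriatric Crypt and Geriatric Proximal Colon at 21 months. There were 3 libraries per group and 2 of Geriatric Proximal Colon, numbered 1 and 3. Juvenile Colon pooled 6 animals per library, and Adult Colon and Geriatric Proximal Colon pooled 2. The series description counts 3 biological replicates per age. Villi and crypts were separated by whether they passed a cell strainer, so a fraction can hold cells of the other. Geriatric Proximal Colon differs from the other colon groups in age, in the named segment and in the solution that released the epithelium, and these cannot be told apart. Libraries kept 14.4 to 47.9 M reads and had 11355 to 60519 peaks, with 45258 to 52365 in Juvenile Duodenum, 17377 to 22299 in Juvenile Colon, and 17026 and 11355 in Geriatric Proximal Colon. In such bulk libraries, a region wide open in few cells and one weakly open in many cannot be told apart. Positions are in mm9. Gene names, sequences and a check of tissue markers need a genome or annotation of that build, which was not used here.

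Almost none of the crypt-closed regions was open in Geriatric Proximal Colon. Library 1 of that group had a peak in 2.96% of the 778 regions and library 3 in 0.514%. The villus-closed regions had a peak in 52.4% and 33.3% in the same 2 libraries, and all 85469 regions in 17.3% and 11.7%. Both libraries thus lay below the background for the crypt-closed class and above it for the villus-closed class, a difference between the classes of −49.4 and −32.8 percentage points. Both libraries had a peak at 2 crypt-closed regions (0.257%), against 9.26% of all regions and 157 of the villus-closed regions (26.5%). At least 1 of them had a peak at 25 crypt-closed regions (3.21%), against 19.8% of all regions. The 2 libraries are too few for a test of the classes within the group to pass 0.05.

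**Figure D1:**
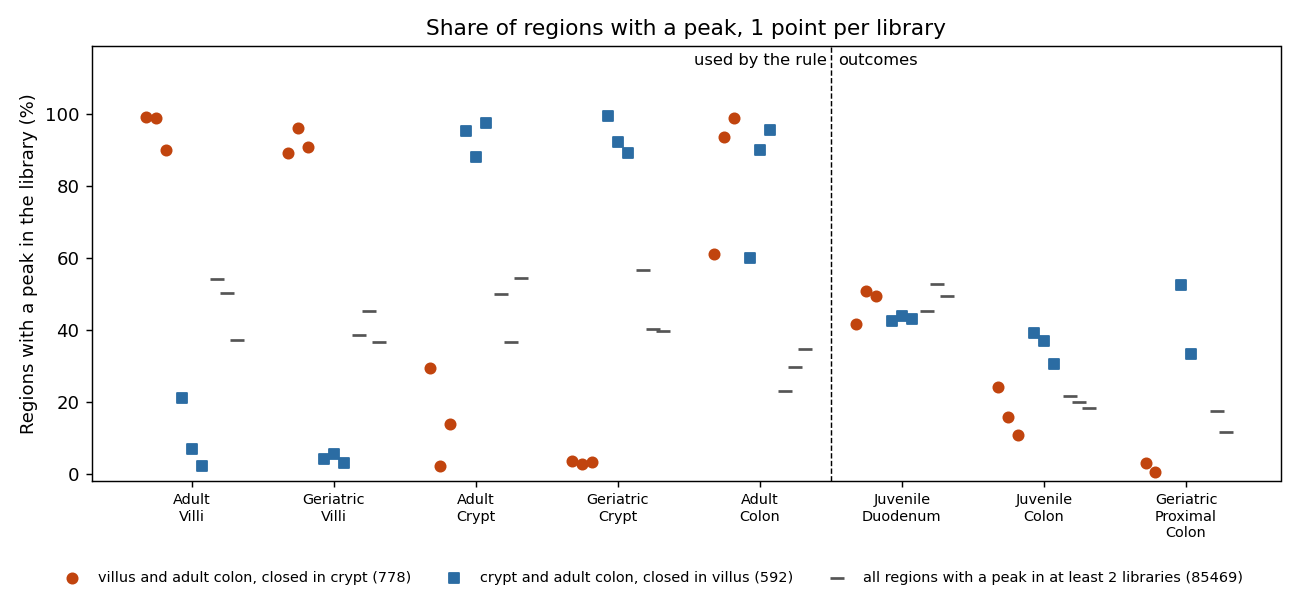
Share of regions with a peak (%, y axis) in each of the 23 libraries (1 point each), by group, for the 778 crypt-closed regions (circles), the 592 villus-closed regions (squares) and all 85469 regions (dashes). Left of the dashed line the rule fixed the values, and right of it the crypt-closed regions stand at 41.5% to 50.8% in Juvenile Duodenum and at 2.96% and 0.514% in Geriatric Proximal Colon.

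Juvenile Duodenum had a peak in many of the crypt-closed regions, but in no larger share than of all regions. All regions include those found through Juvenile Duodenum peaks alone, which raises their share, so the comparison is not between like sets. The shares in libraries 1, 2 and 3 were 41.5%, 50.8% and 49.4%, a mean of 47.2% ± 4.99 (SD, n = 3), against 49.1% ± 3.63 of all regions. The villus-closed regions reached 43.1% ± 0.593 in the same libraries. The difference between the classes was −1.05, 7.02 and 6.28 percentage points, so it did not have the same sign in all 3 libraries. At least 2 Juvenile Duodenum libraries had a peak at 361 crypt-closed regions (46.4%), against 49% of all regions, and none had one at 293 (37.7%), against 37.6%.

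Juvenile Colon lay between the other outcomes. Its libraries 1, 2 and 3 had a peak in 24%, 15.7% and 10.7% of the crypt-closed regions, a mean of 16.8% ± 6.75 (SD, n = 3), while all regions stood at 19.9% ± 1.77. The villus-closed regions stood at 39.2%, 36.8% and 30.6% in those libraries, above the crypt-closed regions in each. The difference was −18.7 ± 3.16 percentage points (SD, n = 3). At least 2 libraries had a peak at 99 crypt-closed regions (12.7%), against 18.5% of all regions and 192 of the villus-closed regions (32.4%). No peak in any Juvenile Colon library was found at 524 crypt-closed regions (67.4%), against 72.6% of all regions. As a ratio to the share of all regions in the same library, the crypt-closed share was 0.588 to 1.11 in Juvenile Colon and 0.915 to 1.00 in Juvenile Duodenum, which overlap, and 0.171 and 0.0439 in Geriatric Proximal Colon.

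The 3 outcome groups did not overlap in the share of all regions with a peak. That share was 45.4% to 52.6% in Juvenile Duodenum, 18.1% to 21.7% in Juvenile Colon, and 17.3% and 11.7% in Geriatric Proximal Colon. Its means of 49.1% in Juvenile Duodenum and 19.9% in Juvenile Colon lay nearly as far apart as those of the crypt-closed regions. The groups did not overlap in the share of crypt-closed regions either. Juvenile Duodenum exceeded Juvenile Colon by 30.4 percentage points and Geriatric Proximal Colon by 45.5 (two-sided exact permutation p = 0.1 each, adjusted p = 0.15 over the 3 pairs), and Juvenile Colon exceeded Geriatric Proximal Colon by 15.1 (exact permutation p = 0.2, adjusted p = 0.2). The difference between the classes also separated the groups, by 22.8 points for Juvenile Duodenum over Juvenile Colon, 22.4 for Juvenile Colon over Geriatric Proximal Colon and 45.2 for Juvenile Duodenum over Geriatric Proximal Colon (exact permutation p = 0.1 and adjusted p = 0.1 for each of the 3 pairs). No p under 0.1 can be reached with 3 against 3 or 3 against 2 libraries, so none of these comparisons could pass 0.05. Where an outcome peak had to cover 50% of a region, Juvenile Colon and Geriatric Proximal Colon overlapped in the difference between the classes, which separated them by 8.01 points (exact permutation p = 0.5). They also overlapped when only outcome peaks with −log10 q of at least 5 were counted, with a separation of 9.93 points (exact permutation p = 0.2). Both the shares and the differences between the classes moved with list length. With every outcome list at its 11355 strongest peaks, the share was 5.27% in Juvenile Duodenum and 5.40% in Juvenile Colon, a difference of −0.129 points (exact permutation p = 1). At that length 12.9% to 13.1% of all regions had a peak in Juvenile Duodenum and 12.8% to 12.9% in Juvenile Colon. Geriatric Proximal Colon stayed lowest in share, with 0.900% and 0.514%, and its villus-closed share was 35.5% and 33.3%, against 12.5% to 15.0% in Juvenile Colon. The difference between the classes then separated Juvenile Duodenum from Juvenile Colon by 9.56 points, against 22.8 with full lists. It separated Juvenile Colon from Geriatric Proximal Colon by 25.6 and Juvenile Duodenum from Geriatric Proximal Colon by 35.1 (exact permutation p = 0.1 for each pair).

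In the libraries that the rule used, the crypt-closed regions had peaks in nearly every Villi library and more unevenly in Adult Colon. Between 89.3% and 99.2% of them had a peak in each Villi library. Adult Colon 1, the shortest Adult Colon list, had 61.1%, Adult Colon 2 had 93.6% and Adult Colon 3 had 99.0%. There were 353 regions with no Crypt peak and 425 with a peak in 1 Crypt library, and 98 regions met the strictest limits of 6 Villi, 3 Adult Colon and 0 Crypt libraries. Adult Crypt 1 supplied 229 of the 425 single Crypt peaks and Adult Crypt 3 supplied 108, while the other 4 Crypt libraries supplied 16 to 27 each. These peaks were weak ones, with a median percentile of −log10 p within their own list of 26.7 in Adult Crypt 1 and of 17.1 to 22.1 in the others. In the mirror class, Adult Villi 1 likewise supplied 124 of the 251 single Villi peaks. Whether villus cells in the Adult Crypt 1 fraction contributed was not tested. Among regions with no Crypt peak, a subset added after the data were seen, the Geriatric Proximal Colon shares were 2.55% and 0.283%.

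Just inside the limits, 276 regions had 5 Villi libraries, 361 had 2 Adult Colon libraries and 425 had 1 Crypt library. Just outside stood 322 regions with 4 Villi libraries, 399 with 1 Adult Colon library and 494 with 2 Crypt libraries. The mean share with a Geriatric Proximal Colon peak was 2.17%, 1.39% and 2.00% in the 3 inside sets. In the outside sets it was 5.90%, 0.627% and 4.45%. The Juvenile Colon share was 18.3% with 1 Crypt library and 27.9% with 2.

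The crypt-closed peaks were of middling strength. In the 3 Adult Villi libraries their median percentile was 62.0, 61.9 and 54.7, and in Geriatric Villi it was 47.7, 49.0 and 51.0. In Adult Colon it was 35.1, 43.5 and 50.7. The median fold enrichment, the authors' ratio of reads at a peak to the background around it, was 5.25 to 6.34 in Adult Colon and 5.27 to 7.07 in Villi. Where Juvenile Duodenum had a peak, its median percentile was 45.9, 48.4 and 47.8. In Juvenile Colon it was 32.6, 31.9 and 26.6, and at the 23 peaks of Geriatric Proximal Colon library 1 it was 20.4.

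**Figure D2:**
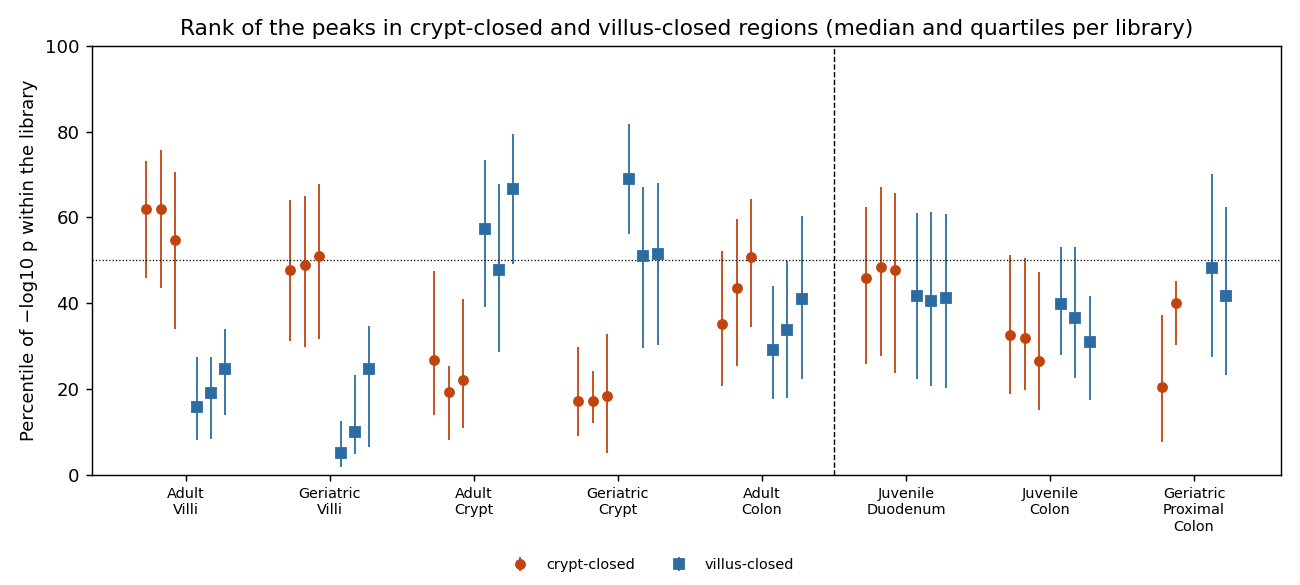
Percentile of −log10 p within each library's own list (y axis, 100 = strongest peak) for the peaks in crypt-closed (circles) and villus-closed regions (squares), with the median and quartiles per library. Medians of crypt-closed peaks run from 47.7 to 62.0 in Villi and from 35.1 to 50.7 in Adult Colon, and from 17.1 to 26.7 in Crypt, where only the single permitted peaks are shown.

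Villus and colon peaks had their summits close together within these regions. The summits of a Villi and an Adult Colon peak lay a median of 44.3 bp apart over 18 pairs of libraries (range of the medians 36 to 55.5). Among pairs of Villi libraries the median was 41.0 bp over 15 pairs. Within 100 bp of each other were 81.6% of the villus and colon summits, against 82.6% of those of 2 Villi libraries. In regions open in villus, adult colon and crypt, villus and colon summits lay 38 bp apart, with 82.0% within 100 bp. Close summits were thus not particular to the crypt-closed regions, and the width of a region limits how far apart they can lie. Summits in Juvenile Duodenum were 40.0 bp from those in Villi, and summits in Juvenile Colon 41.5 bp from those in Adult Colon. The regions had a median width of 469.5 bp (quartiles 383 and 582), against 449.5 bp for the villus-closed class and 709 bp for the 14068 regions open in villus, adult colon and crypt.

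The Geriatric Proximal Colon shares of crypt-closed regions were 7.69% or less in each of 4 bins of the strength of the adult colon peak. The 3 classes open in Adult Colon were split by the median percentile of their Adult Colon peaks, a split chosen after the data were seen. In the weakest bin, up to the 25th percentile, 2.07% and 0.826% of 242 crypt-closed regions had a peak in libraries 1 and 3, against 46.1% and 26.6% of 282 villus-closed regions. In the strongest bin, above the 75th percentile, 7.69% and 0% of 52 crypt-closed regions had one, which are 4 and 0 regions, against 73.9% and 47.8% of 23 villus-closed regions. Regions open in villus, adult colon and crypt went from 33.6% and 17.0% in the weakest bin to 88.8% and 74.3% in the strongest.

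Juvenile Colon shares were higher where the adult colon peak was stronger. Its 3 libraries had a peak in 9.92%, 4.96% and 3.72% of the weakest crypt-closed regions and in 75%, 59.6% and 48.1% of the strongest. The villus-closed regions were higher in both bins, at 24.8% to 29.8% and 78.3% to 95.7%. Seen the other way, the median Adult Colon percentile was 31.2 for crypt-closed regions with a peak in no Juvenile Colon library, 52.4 with 1, 62.4 with 2 and 72.2 with 3. Juvenile Duodenum showed little such gradient with the adult colon peak, at 37.2% to 47.9% in the weakest and 44.2% to 57.7% in the strongest bin. Its share went with villus strength instead: the median Villi percentile was 45.2 for regions with a peak in no Juvenile Duodenum library and 58.8 for those with a peak in all 3. These medians are a description over regions that share the same libraries.

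**Figure D3:**
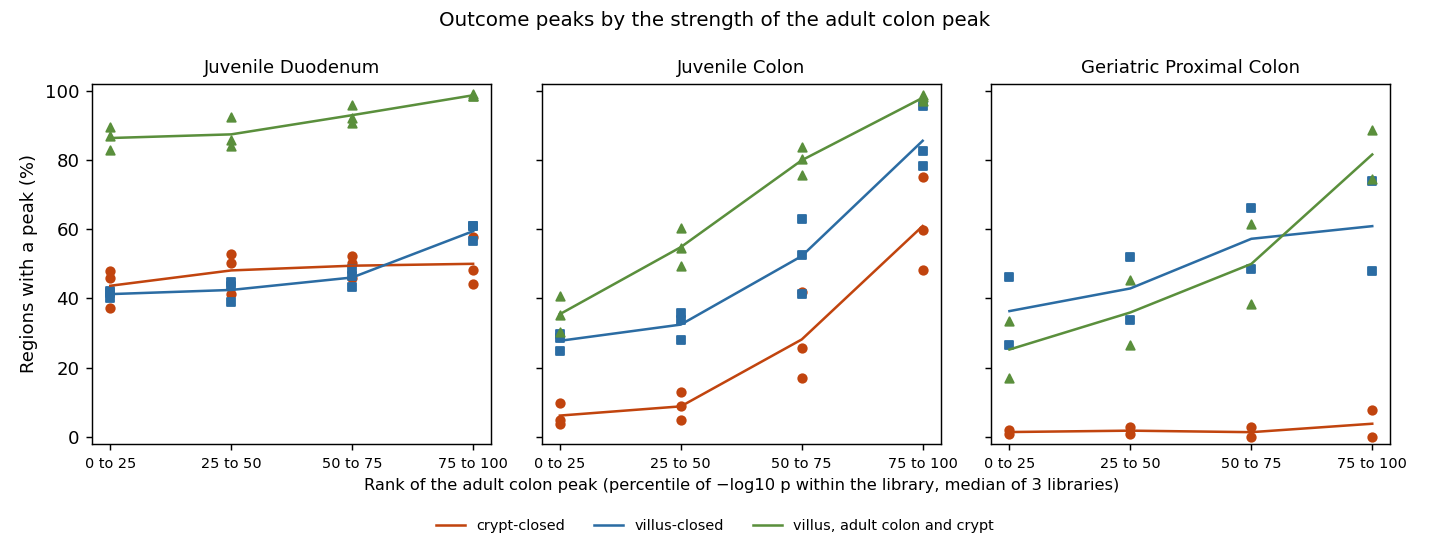
Share of regions with a peak (%, y axis) in the 3 outcome groups by the percentile of the adult colon peak (x axis, 4 bins), for crypt-closed (circles), villus-closed (squares) and regions open in villus, adult colon and crypt (triangles). Each point is a library and each line the group mean; crypt-closed regions reach 48.1% to 75% in Juvenile Colon and stay between 0% and 7.69% in Geriatric Proximal Colon.

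Few crypt-closed regions were open in both juvenile tissues. With a peak in at least 2 libraries of each group, there were 57 (7.33%), against 15.5% of all regions. All 3 Juvenile Duodenum and none of the 5 colon outcome libraries had a peak at 168 crypt-closed regions (21.6%), against 17.6%. Juvenile Colon was open and Juvenile Duodenum closed at 30 regions (3.86%), against 1.64% of all regions and 66 of the villus-closed regions (11.1%). Juvenile Duodenum was open at 45.2% of the 524 crypt-closed regions with a peak in no Juvenile Colon library and at 64.1% of the 39 with a peak in all 3. Over all regions the same shares were 40.8% and 91.0%. At 208 crypt-closed regions (26.7%) no juvenile library had a peak, against 32.3%, and at 206 (26.5%) none of the 8 outcome libraries had one, against 29.8%. Of the 99 regions open in Juvenile Colon, 88 had no peak in Geriatric Proximal Colon, which is 11.3% of the crypt-closed regions, against 5.52% of all regions. This was not particular to the class. The same held for 10.3% of the villus-closed regions and 13.5% of the regions open in villus, adult colon and crypt.

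**Figure D4:**
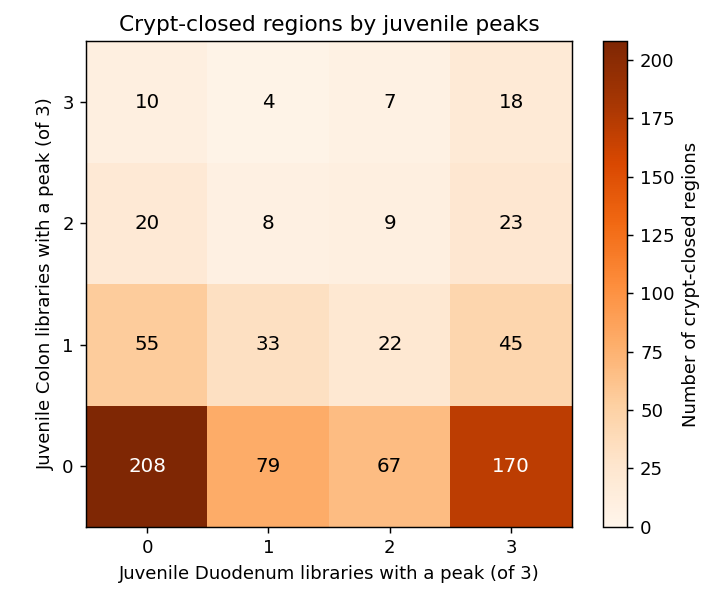
Number of crypt-closed regions (figure in each cell, darker for more) by the number of Juvenile Duodenum libraries (x axis, 0 to 3) and Juvenile Colon libraries (y axis, 0 to 3) with a peak. The fullest cells are those with no juvenile peak (208 regions) and with a peak in all Juvenile Duodenum and no Juvenile Colon libraries (170 regions), and 18 regions had a peak in all 6.

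The authors' deposited lists name regions more accessible in 1 group of a pair. For Juvenile Colon against Geriatric Proximal Colon, most crypt-closed regions were in neither of the authors' deposited lists, and those listed were all higher in Juvenile Colon. The authors' deposited list of regions higher in Juvenile Colon than in Geriatric Proximal Colon, made from libraries that the rule did not use, held 158 crypt-closed regions (20.3%) against 3.54% of all regions. The authors' deposited list of the opposite direction held 0 of them, against 1.27% of all regions. The villus-closed regions showed the reverse, with 18 in the first of the authors' deposited lists and 99 (16.7%) in the second. Of the 158 regions, 82 had no called peak in any Juvenile Colon library, so the authors' deposited list includes regions without a called peak. In the authors' deposited lists of Juvenile Duodenum against Juvenile Colon, 19 crypt-closed regions (2.44%) were higher in duodenum, against 6.73% of all regions, and 50 (6.43%) were higher in colon, near the 6.85% of all regions. More of them were thus listed as higher in colon than in duodenum in the authors' deposited lists, the opposite of the order of the peak shares.

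The other lists share libraries with the rule and are given as a description. By the authors' deposited lists, 133 crypt-closed regions (17.1%) were higher in Adult Colon than in Geriatric Proximal Colon and 1 was lower, against 2.04% and 2.32% of all regions. Against Juvenile Colon, the authors' deposited lists put 120 (15.4%) higher in Adult Colon and 1 lower, against 2.32% and 1.72%. Adult Villi exceeded Juvenile Duodenum at 280 (36%) and fell below it at 7 in the authors' deposited lists, against 6.92% and 7.92%. For Geriatric Villi the authors' deposited lists gave 212 higher and 5 lower than Juvenile Duodenum, against 5.01% and 5.67%. Within the geriatric age, the authors' deposited lists put 79 (10.2%) higher in Geriatric Villi than in Geriatric Proximal Colon and 1 lower, against 2.44% and 1.96%. Geriatric Proximal Colon was itself above Geriatric Crypt at 17 (2.19%) and below it at 0 in the authors' deposited lists, against 0.604% and 0.9%. A set of 56 crypt-closed regions (7.20%) was in the authors' deposited lists both for Adult Villi over Juvenile Duodenum and for Adult Colon over Juvenile Colon, where 302 of all 85469 regions (0.353%) were.

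On the crypt axis, which the rule used, the authors' deposited lists held 306 crypt-closed regions (39.3%) as higher in Adult Villi than in Adult Crypt, against 3.65% of all regions. The authors' deposited lists held 397 (51.0%) as higher in Geriatric Villi than in Geriatric Crypt, against 4.58%, and 363 (46.7%) as higher in Adult Colon than in Adult Crypt, against 9.75%. The rule asked for peaks in both villus and colon. In the authors' deposited lists 52 (6.68%) were higher in Adult Colon than in Adult Villi, near the 8.48% of all regions, and 9 (1.16%) were lower, against 8.13%. Between ages, 0 crypt-closed regions were in the authors' deposited lists of Adult over Geriatric Villi (0.0433% of all regions), Geriatric over Adult Villi (0.0749%), Adult over Geriatric Crypt (0.0644%) and Geriatric over Adult Crypt (0.0725%). These authors' deposited lists held only 37 to 64 regions each, so 0 is near the shares of all regions and says little about age.

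Of the 98 strict members, 22 (22.4%) were open in Juvenile Duodenum alone among the outcomes, against 28.1% of all regions. The leading one, by the median percentile over the 9 Villi and Adult Colon libraries, was chr14:45529611-45530166, 556 bp wide. Its peak had a fold enrichment of 12.1, 11.1 and 8.72 in Adult Villi 1 to 3 and of 6.66, 8.50 and 9.14 in Geriatric Villi. In Adult Colon it was lower, at 4.4, 4.66 and 6.82. Juvenile Duodenum had 5.44, 9.03 and 6.40, and no other outcome library had a peak. The median fold over all peaks of a library ran from 4.80 in Juvenile Colon 3 to 6.94 in Juvenile Duodenum 3. Folds set side by side between libraries, here and below, are therefore a description only. The third by that rank, chr16:94807932-94808356, had folds of 8.27, 10.8 and 14.2 in Juvenile Duodenum, which overlapped the 9.0, 10.0 and 9.10 of Adult Villi, and 5.13, 6.04 and 5.36 in Adult Colon, below both. The authors' deposited list names that region as higher in Juvenile Duodenum than in Juvenile Colon. The fifth, chr10:80828453-80829421, went the other way in the authors' deposited lists, as higher in Juvenile Colon than in Juvenile Duodenum. It had a called peak in 2 Juvenile Duodenum libraries and 0 Juvenile Colon libraries.

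Another 6 strict members (6.12%) were open in Juvenile Colon alone among the outcomes, against 1.18% of all regions. At chr5:65157046-65157698 the Adult Colon folds were 10.2, 11.7 and 17.8, and the Adult Villi folds 11.1, 11 and 8.62. Geriatric Villi had 10.0, 8.15 and 5.62. In Juvenile Colon libraries 1 and 3 the peak was weak, at 3.16 and 3.95, and library 2 had none. At chr4:116422343-116422988 all Adult Colon libraries were above all Villi libraries, with 14.8, 14.7 and 15.4, against 9.93, 9.05 and 6.64 in Adult Villi and 5.24, 6.82 and 5.62 in Geriatric Villi. The percentiles within each list had the same order, at 93.4 to 97.6 in Adult Colon and 37.0 to 78.7 in Villi. All 3 Juvenile Colon libraries had a peak there, with folds of 6.33, 6.82 and 4.57. By the authors' deposited lists this region was higher in both Adult and Juvenile Colon than in Geriatric Proximal Colon, and neither library of the latter had a peak.

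No outcome library had a peak at 25 of the 98 strict members (25.5%), close to the 29.8% of all regions. The leading one was chr6:32977796-32978631, 836 bp wide, with folds of 11.4, 11.7 and 6.78 in Adult Villi, 9.42, 5.59 and 7.03 in Geriatric Villi and 6.99, 8.70 and 7.73 in Adult Colon. The authors' deposited lists name it as higher in Adult Villi and in Geriatric Villi than in Juvenile Duodenum. The second was chr4:127004506-127004990, with 6.86, 8.43 and 5.72 in Adult Villi, 6.68, 6.84 and 5.92 in Geriatric Villi and 3.79, 6.41 and 5.36 in Adult Colon. Both juvenile groups were open at 12 strict members (12.2%) without a Geriatric Proximal Colon peak, against 3.76% of all regions. In Geriatric Proximal Colon 0 of the 98 were open, against 9.26%.

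**Figure D5:**
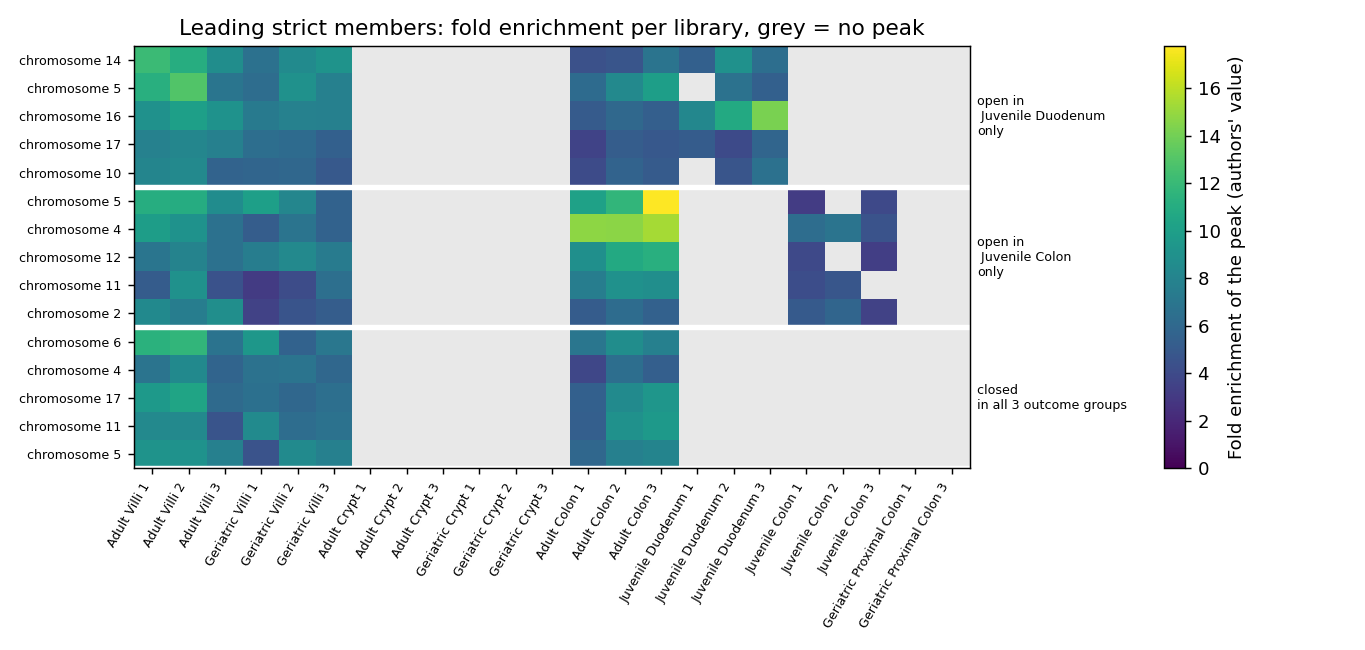
Fold enrichment of the peak (authors' value, colour) in each of the 23 libraries (columns) for the 5 leading strict members of each of 3 outcome patterns (rows, labelled by chromosome, grey where no peak was called). No Crypt or Geriatric Proximal Colon library has a peak in any of these rows, and the 2 highest Adult Colon rows, on chromosomes 5 and 4, reach 17.8 and 15.4.

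The 2 crypt-closed regions open in both Geriatric Proximal Colon libraries were chosen for naming after their values were seen. At chr11:66234472-66234824 the folds were 6.77 and 5.54 in Geriatric Proximal Colon, 5.11, 7.11 and 6.85 in Juvenile Colon and 6.56, 5.52 and 6.58 in Adult Colon, so the colon groups overlapped. At chr2:109864170-109864433 Geriatric Proximal Colon had 5.24 and 5.09 and Adult Colon had 6.52 and 5.12 in 2 libraries, and no juvenile library had a peak.

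The crypt-closed regions were spread over all autosomes and chromosome X, with 9 of 778 (1.16%) on X against 2.95% of all regions. Chromosomes 5 and 11 held 60 each (7.71%, against 6.31% and 6.33% of all regions). Another crypt-closed region lay within 50 kb of 142 of them (18.3%), where 7.60% of the fewer villus-closed regions had one of their own class as near. Runs with gaps of up to 50 kb numbered 67, of which 7 held at least 3 regions and 3 held 4. These runs were picked after their values were seen.

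Neighbours in a run could differ in the outcomes. In the densest run of 4, chr11:62849313-62869580, the first and second regions were open in Juvenile Colon, with a peak in 3 and 2 libraries and in no Juvenile Duodenum library. The region at 62868060 had the reverse, with 2 Juvenile Duodenum libraries and no Juvenile Colon library, and the last had no outcome peak. A run of 3 on chromosome 5 from 65114666 to 65178254 held 1 region with no outcome peak, the region at 65157046 described above and, at 65177912, a region with a peak in 3 Juvenile Duodenum and 2 Juvenile Colon libraries. None of the 7 regions in these runs had a Geriatric Proximal Colon peak.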

How the data were processed

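Per the file headers, the authors called peaks in each ATAC-seq library alone with MACS2 2.1.0.20150731, without a control, at a q cutoff of 0.05, keeping 1 read per position, with read extensions of 68 to 210 bp. The deposited peak tables give a pileup signal not scaled to depth, −log10 p-values and −log10 q-values, and the fold enrichment, a ratio to the local background over 10 kb. The submitters' processing notes name mm9, Bowtie2 and DiffBind with no settings. The 28 deposited region lists hold positions only, and what threshold the authors set for them was not known.

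Peaks sharing at least 1 bp were merged (Python 3.11.15, pandas 2.3.3), which was checked against bedtools 2.31.1 and tested on simulated data. Full lists were used. Groups and replicates came from the sample titles. Shares were compared with two-sided exact permutation tests over libraries, with Benjamini-Hochberg adjustment over 3 pairs. The series description calls the replicates biological, and p-values measure only the spread between these libraries. Where 2 peaks of a library lay in a region, the stronger was used. The regions named are strict members ranked by their median percentile of −log10 p over the 9 Villi and Adult Colon libraries, by outcome pattern. The member rule, lists and tests were chosen with earlier results of these data known. Motif and gene-distance counts need an mm9 genome, which was not used here, and were not made.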

Additional observations from a re-analysis of the deposited data

How the results depend on the processing

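Of 109 alternative values, 100 kept their direction or stayed within 1.5 times the main count. Some of the 100 could not differ from the main value. Regions hold whole peaks, so asking for the outcome summit inside the region changed nothing. Pairing Juvenile Duodenum with Juvenile Colon by replicate number leaves their mean difference as it was. For Geriatric Proximal Colon, a peak in every library is the same rule as open. With the outcome lists at the length of the shortest, 11355 peaks, the difference in share between Juvenile Duodenum and Juvenile Colon reversed to −0.129 points, from 30.4. The members open in a group then numbered 37 for Juvenile Duodenum, 31 for Juvenile Colon and 1 for Geriatric Proximal Colon. Crypt-closed and villus-closed shares were both lower at that length, except in Geriatric Proximal Colon library 3, whose list is the shortest and did not change. A peak in at least 1 library was found at 254 members in Juvenile Colon and 25 in Geriatric Proximal Colon, and in every library at 39 in Juvenile Colon. The number of members was 98 with 6 Villi, 3 Adult Colon and 0 Crypt libraries and 353 with 0 Crypt libraries, and 781 with peaks of the 15 defining libraries merged, of which the main set shares 776. Where an outcome peak had to cover 50% of the region, the share differences were 12.9, 5.25 and 18.1 points in the order used next, and the differences between the classes 13.9, 8.01 and 21.9. Over the changes of list, overlap and membership the share of Juvenile Colon over Geriatric Proximal Colon ranged from 4.69 to 24.5 points and that of Juvenile Duodenum over Geriatric Proximal Colon from 4.56 to 52.6. The difference between the classes ranged from 9.56 to 28.4 points for Juvenile Duodenum over Juvenile Colon. It ranged from 8.01 to 36.9 for Juvenile Colon over Geriatric Proximal Colon and from 21.9 to 61.4 for Juvenile Duodenum over Geriatric Proximal Colon.

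Leaving out 1 library gave 808 to 1155 members, against 778. At most 1 Villi and 1 Adult Colon library could still lack a peak, and at most 1 Crypt library could have one. All 778 members thus still met the rule, and their number could only rise. The share differences moved between 27.4 and 34.0 points (Juvenile Duodenum over Juvenile Colon), 11.4 and 18.1 (Juvenile Colon over Geriatric Proximal Colon) and 43.7 and 48.3 (Juvenile Duodenum over Geriatric Proximal Colon). The differences between the classes moved between 21.4 and 25.4, 14.0 and 30.7, and 36.8 and 53.5 points. Without Geriatric Proximal Colon library 1 the middle one was 14.0, against 22.4. Pairing by replicate number (replicate block, sign-flip exact test) gave 30.4 (p = 0.25), 15.6 (p = 0.5) and 43.7 points (p = 0.5) for the shares and 22.8, 23.6 and 43.7 for the classes. The numbers join animals of different ages, and deviations of same-numbered libraries correlated at −0.0161 to 0.0794, so they share only a number. Depth limits what "closed" can mean: a region under the threshold of a short list is not shown to be shut.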
